A study of Mus musculus with 20 samples.

Results

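The microRNAs (miRNAs) described here are encoded inside or beside the Hox gene clusters: every mature miRNA of the count table whose name begins mmu-miR-10a, mmu-miR-10b, mmu-miR-196a, mmu-miR-196b or mmu-miR-615, whichever arm or copy of the hairpin it comes from. The rule named 11 of the 1137 mature miRNAs in a table of 2127 small RNA features. Small RNA of FVB/N mouse skin was sequenced in 4 groups of 5 libraries: healthy skin of acetone-treated mice, and hyperplastic skin, papillomas and cutaneous squamous cell carcinomas (cSCC) of mice treated with DMBA and PMA. DMBA is a chemical carcinogen and PMA a phorbol ester that promotes tumour growth, so the 3 treated groups share both agents and healthy skin received neither. The labels give no age, dose, treatment time, body site or mouse identity, and p-values therefore measure the spread between these libraries, which may be technical in part. The total count of mature miRNAs was 2884177 to 4921719 per library in healthy skin, 3142228 to 6904298 in hyperplastic skin, 1060615 to 2370313 in papillomas and 1614803 to 2903657 in cSCCs.

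Hox genes encode transcription factors that pattern the body axis, and each vertebrate cluster carries miRNA genes between its coding genes. miR-10 genes sit near the Hox4 genes, miR-196 genes near the Hox9 and Hox10 genes, and miR-615 in an intron of Hoxc5; like their neighbours, these miRNAs are expressed in parts of the body axis rather than evenly along it, and miR-196 is known for silencing Hoxb8. A mature miRNA recognises its target messenger RNAs chiefly through its seed, bases 2 to 8 from the 5′ end.

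All 11 members were found by name among the RefSeq sequences of the GRCm38.p6 build. The 5 abundant products are shown with the seed in capitals because they fall into 3 seed groups, and because the products within the miR-10 and miR-196 groups are nearly the same molecule.
miR-10a-5p: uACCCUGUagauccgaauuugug
miR-10b-5p: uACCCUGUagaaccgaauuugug
miR-196a-5p: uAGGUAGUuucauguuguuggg
miR-196b-5p: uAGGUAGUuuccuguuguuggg
miR-615-3p: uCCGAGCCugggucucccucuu
Counted from the 5′ end, miR-10a-5p and miR-10b-5p differed by the single substitution U12A, and miR-196a-5p and miR-196b-5p by A12C. No miRNA of the table outside these pairs shared either seed. No source used here gives the number of mismatches allowed in read counting, so the split of reads within each pair is uncertain, and the sums of the pairs are given beside the single values.

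In GRCm38.p6, Mir10a lies on chromosome 11 between Hoxb5 and Hoxb4, 992 bases before the latter. Mir10b lies on chromosome 2 between Hoxd8 and Hoxd1, inside the annotated spans of Hoxd3 and Hoxd4. Mir196b lies on chromosome 6 between Hoxa9 and Hoxa10. Mir615 lies on chromosome 15 inside Hoxc5. miR-196a-5p is made by a pair of genes with an identical product: Mir196a-1 on chromosome 11 near Hoxb9, in the same cluster as Mir10a, and Mir196a-2 on chromosome 15 between Hoxc10 and Hoxc9. The deposited table lists miR-196a-5p once, at the chromosome 15 copy in mm9 coordinates (102803795 to 102803818). Its reads cannot be assigned to one of the copies, whereas the 3p arms of the copies differ and have entries of their own.
miR-196a-1-3p: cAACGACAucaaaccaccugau
miR-196a-2-3p: uCGGCAACaagaaacugccuga

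Levels are given as CPM, which is a miRNA's count as a share of all mature miRNA counts of its library, multiplied by 1e6 and scaled by the trimmed mean of M-values (TMM). Among the 850 miRNAs that passed the low-count filter, miR-10a-5p ranked 55 by mean level (2572), miR-10b-5p 63 (1870), miR-615-3p 123 (472.3), miR-196a-5p 198 (151.6) and miR-196b-5p 339 (32.29). The remaining 6 members, among them every minor arm, averaged 4.342 to 19.15. All 11 passed the filter, and they made up 0.467 to 0.785% of the miRNA counts of healthy libraries, 0.596 to 0.731% of hyperplastic, 0.36 to 0.558% of papilloma and 0.197 to 0.408% of cSCC libraries. All 5 cSCCs and 3 of the 5 papillomas lay below the lowest healthy share.

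One property of the table touches each comparison with tumours. Together, the 590 sparsest miRNAs (mean count no higher than 20) took between 3226 and 6911 counts of each library however deep it was, and TMM factors ran from 0.637 to 1.67. Scaling by, and testing, only the 293 miRNAs with a mean of at least 50 CPM before TMM changed the log2 fold changes of those miRNAs. The median change per miRNA was upward in these comparisons. Against healthy skin it was 0.08 in hyperplastic skin, 0.64 in papillomas and 0.71 in cSCCs, and in cSCCs against papillomas it was 0.07. Fold changes are therefore given under both scalings, first over all 850 miRNAs and then over the 293 abundant ones, which include miR-10a-5p, miR-10b-5p, miR-615-3p and miR-196a-5p. Unless another test is named, adjusted p-values are from edgeR's quasi-likelihood test with Benjamini-Hochberg adjustment over all miRNAs of the fit.

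mmu-miR-10b-5p, the product of the HoxD cluster, was the member with the deepest fall in papillomas and in cSCCs against healthy skin. Its level in healthy libraries 2, 3, 4, 5 and 7 was 3451, 3471, 2896, 3257 and 2948. In hyperplastic libraries 1, 2, 5, 7 and 8 it was 2041, 2093, 1956, 4223 and 3136. Hyperplastic skin overlapped healthy skin, with library 7 above every healthy library, library 8 within the healthy range and the other 3 below every healthy library. In papilloma libraries 1, 3, 4, 5 and 6 the level was 1003, 1627, 892.2, 1050 and 642.9, and in cSCC libraries 1, 2, 3, 4 and 6 it was 435.2, 418.4, 705.6, 580.7 and 572.4. All tumours lay below all libraries of healthy and hyperplastic skin, and papillomas and cSCCs overlapped only through papilloma 6, which was below cSCC 3.

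The group means of miR-10b-5p were 3205 ± 272 (SD, n = 5) in healthy skin, 2690 ± 983 in hyperplastic skin, 1043 ± 362 in papillomas and 542.5 ± 118 in cSCCs. Against healthy skin it fell by 1.62 ± 0.27 (SE) on the log2 scale in papillomas (adjusted p = 6.96e-05) and by 2.56 ± 0.27 in cSCCs (adjusted p = 6.63e-08). Over the abundant miRNAs the falls were smaller, with log2 values of -1.001 (adjusted p = 0.000365) and -1.85 (adjusted p = 2.82e-07), and both remained past the threshold of 0.05. The cSCC value was the 23rd lowest of 850 fold changes and the 18th lowest of the 293. In hyperplastic against healthy skin the log2 fold change was -0.25 ± 0.26 (adjusted p = 0.782).

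From papilloma to cSCC, miR-10b-5p fell by 0.94 ± 0.26 on the log2 scale (adjusted p = 0.0178), and over the abundant miRNAs by 0.85 (adjusted p = 0.00337). This call was marginal, and only 3 of the 10 refits with a library left out kept it. Without papilloma 1, 3, 4 or 5, or without cSCC 1, 2 or 4, the adjusted p was 0.0784, 0.0946, 0.0721 and 0.121, and 0.0952, 0.104 and 0.0722, with log2 values between -0.87 and -0.73. The direction stayed the same in each of these refits. Against hyperplastic skin the falls were 1.37 in papillomas (adjusted p = 0.000619) and 2.31 in cSCCs (adjusted p = 4.11e-07), and 0.81 (adjusted p = 0.00346) and 1.66 (adjusted p = 1.26e-06) over the abundant miRNAs.

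**Figure D1:**
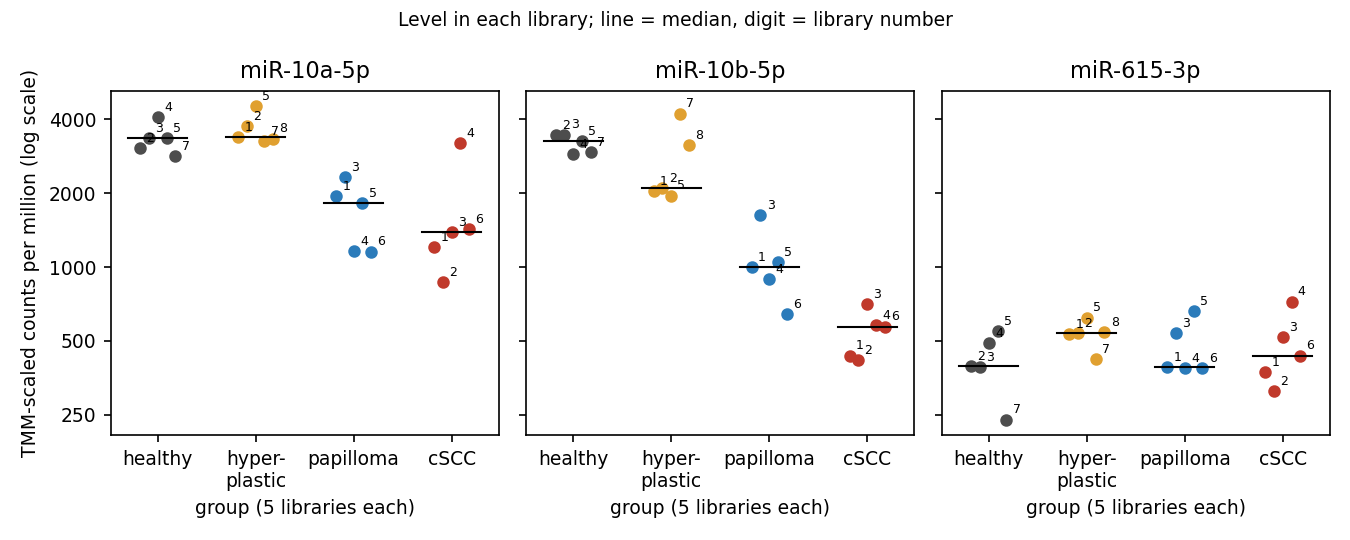
Level of miR-10a-5p, miR-10b-5p and miR-615-3p in each of the 20 libraries, in TMM-scaled CPM on a log axis, by group of 5; each point is a library with its number, and the line is the group median. miR-10b-5p steps down from a median of 3257 in healthy skin to 1003 in papillomas and 572.4 in cSCCs, miR-10a-5p has tumour medians of 1829 and 1392 with cSCC 4 at 3193, and miR-615-3p stays between 238.8 and 722.5.

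mmu-miR-10a-5p, the HoxB product that differs from miR-10b-5p in 1 base, had a mean level close to that of miR-10b-5p in healthy skin and smaller fold changes in tumours. Its level in the 5 healthy libraries was 3054, 3344, 4079, 3365 and 2833, and in the 5 hyperplastic libraries 3380, 3745, 4529, 3265 and 3339. These groups overlapped throughout. In papillomas it was 1953, 2320, 1160, 1829 and 1155, and in cSCCs 1210, 869, 1392, 3193 and 1427. Under TMM, every tumour lay below every healthy and hyperplastic library except cSCC 4, which was within the healthy range. With total miRNA counts as the scale, the healthy libraries ran from 2144 to 4027. Papillomas 3 and 5 (2623 and 2295) and cSCC 4 (2618) lay within that range. Papilloma 3 and cSCC 4 were then also above hyperplastic 7 (2503).

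Group means of miR-10a-5p were 3335 ± 470 (SD, n = 5), 3652 ± 524, 1683 ± 513 and 1618 ± 907 in the order healthy, hyperplastic, papilloma and cSCC. Over all 850 miRNAs it fell by 0.99 ± 0.29 on the log2 scale in papillomas (adjusted p = 0.00799) and by 1.04 ± 0.29 in cSCCs (adjusted p = 0.00404), both against healthy skin. Over the abundant miRNAs these values were -0.38 (adjusted p = 0.185) and -0.39 (adjusted p = 0.143), so neither call held under that scaling, and the papilloma call was also lost with total miRNA counts as the scale (-0.41, adjusted p = 0.161). Without cSCC 4 the fall in cSCCs was 1.58 (adjusted p = 2.53e-05). Against hyperplastic skin the falls were 1.12 in papillomas (adjusted p = 0.00506) and 1.17 in cSCCs (adjusted p = 0.00188). Over the abundant miRNAs they were 0.59, which did not pass (adjusted p = 0.0621), and 0.60 (adjusted p = 0.0364). Papillomas and cSCCs gave a log2 difference of -0.06 (adjusted p = 0.945).

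Because reads of this pair could be exchanged, their sum was fitted as 1 feature. The sum of miR-10a-5p and miR-10b-5p fell by 1.26 ± 0.26 on the log2 scale in papillomas (adjusted p = 0.000657) and by 1.59 ± 0.27 in cSCCs (adjusted p = 2.87e-05) against healthy skin. Over the abundant miRNAs the sum fell by 0.65 (adjusted p = 0.00735) and 0.92 (adjusted p = 0.000314). Against hyperplastic skin it fell by 1.22 (adjusted p = 0.00147) and 1.56 (adjusted p = 4.58e-05). The fall of the miR-10 seed as a whole therefore did not depend on how reads were split between the copies. Between cSCCs and papillomas the sum differed by -0.34 on the log2 scale (adjusted p = 0.506).

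The balance of the pair was followed as a ratio of counts within each library, which is free of library size and scaling. miR-10a-5p to miR-10b-5p stood at 0.885, 0.964, 1.41, 1.03 and 0.961 in the healthy libraries and at 1.66, 1.79, 2.32, 0.773 and 1.06 in hyperplastic ones. In papillomas it was 1.95, 1.43, 1.3, 1.74 and 1.8, and in cSCCs 2.78, 2.08, 1.97, 5.5 and 2.49. The cSCCs lay above all papillomas and all healthy libraries, cSCC 4 stood furthest out, and hyperplastic skin covered the range of both healthy skin and papillomas.

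The mean log2 ratio was 1.41 higher in cSCCs than in healthy skin and 0.76 higher than in papillomas, each with p = 0.00794 in an exact two-sided permutation test, the smallest p that 5 against 5 libraries allows. Adjusted over the 42 tests of 7 ratios in 6 comparisons, both came to 0.0833 and did not pass. At that smallest p, a ratio could pass this adjustment only if enough other tests had similarly small p-values, and 4 of the 42 tests reached it. The failure to pass is therefore no sign that the ratios were alike. Of the 42 tests, 12 had an exact p under 0.05 before adjustment and none passed after it, while limma on the same log2 ratios called 2. One of these was the pair in cSCC against healthy skin (adjusted p = 0.0108), and papilloma to cSCC gave 0.178 in that fit. Without cSCC 4 the differences were 1.16 and 0.51. Papillomas were 0.65 above healthy skin (exact permutation p = 0.0159, adjusted 0.0952).

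miR-615-3p, made from an intron of Hoxc5, passed no test over all 850 miRNAs. Its level was 394.1, 392.2, 490.3, 546.6 and 238.8 in healthy skin and 533, 537.8, 621.6, 421.1 and 542.5 in hyperplastic skin. In papillomas it was 390.5, 538.5, 388.4, 659.9 and 387.2, and in cSCCs 374.4, 312.7, 518.3, 722.5 and 435.5. All 4 groups overlapped, with healthy 7 the lowest library and cSCC 4 the highest under TMM. With total miRNA counts as the scale, healthy 7 was still the lowest (197.6), but papilloma 5 was the highest (828.1).

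The log2 fold change of miR-615-3p against healthy skin was 0.20 ± 0.26 in papillomas (adjusted p = 0.542) and 0.20 ± 0.26 in cSCCs (adjusted p = 0.548). Over the abundant miRNAs it rose by 0.85 in papillomas (adjusted p = 0.00611) and by 0.88 in cSCCs (adjusted p = 0.00338). Total miRNA counts as the scale also gave a call in papillomas (0.84, adjusted p = 0.0101). The call for this miRNA thus depended on the scaling. Within libraries, where scaling plays no part, miR-615-3p was 0.0811 to 0.169 times as abundant by count as miR-10b-5p in healthy skin, 0.0997 to 0.318 times in hyperplastic skin, 0.331 to 0.628 times in papillomas and 0.735 to 1.24 times in cSCCs. On the log2 scale this ratio was 1.90 higher in papillomas and 2.78 higher in cSCCs than in healthy skin, and against miR-10a-5p the differences were 1.25 and 1.37. Both ratios of miR-615-3p were chosen after the levels had been seen and carry no test; papillomas and cSCCs did not overlap healthy skin in either of them.

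**Figure D2:**
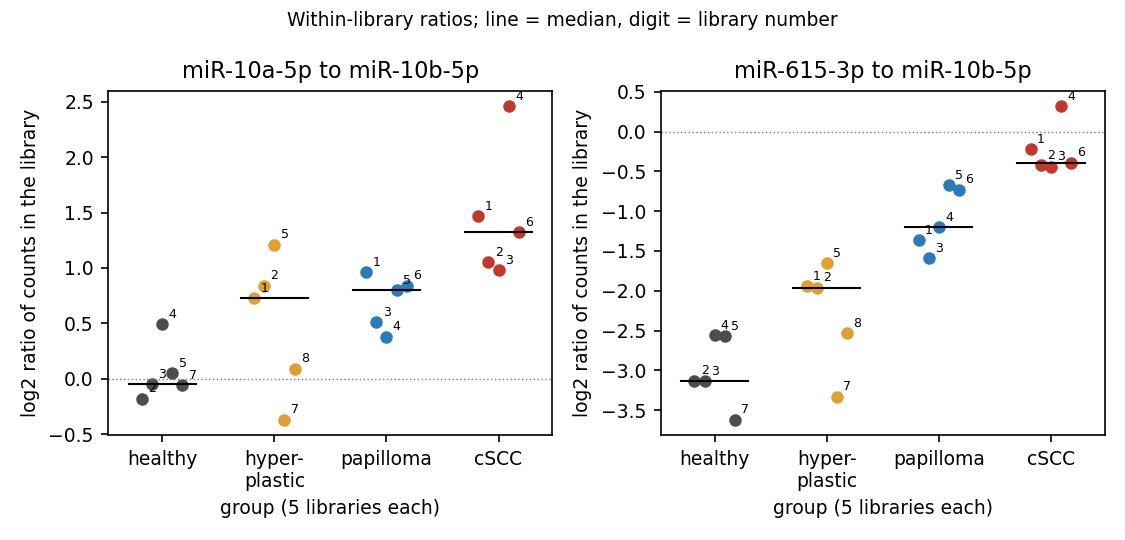
Log2 ratio of counts within each library for miR-10a-5p to miR-10b-5p (left) and miR-615-3p to miR-10b-5p (right), by group of 5 libraries; points carry the library number, the line is the median and the dotted line marks equal counts. The first ratio has group means of 0.05, 0.50, 0.70 and 1.46 from healthy skin to cSCC, and the second -3.01, -2.28, -1.11 and -0.23.

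**Figure D3:**
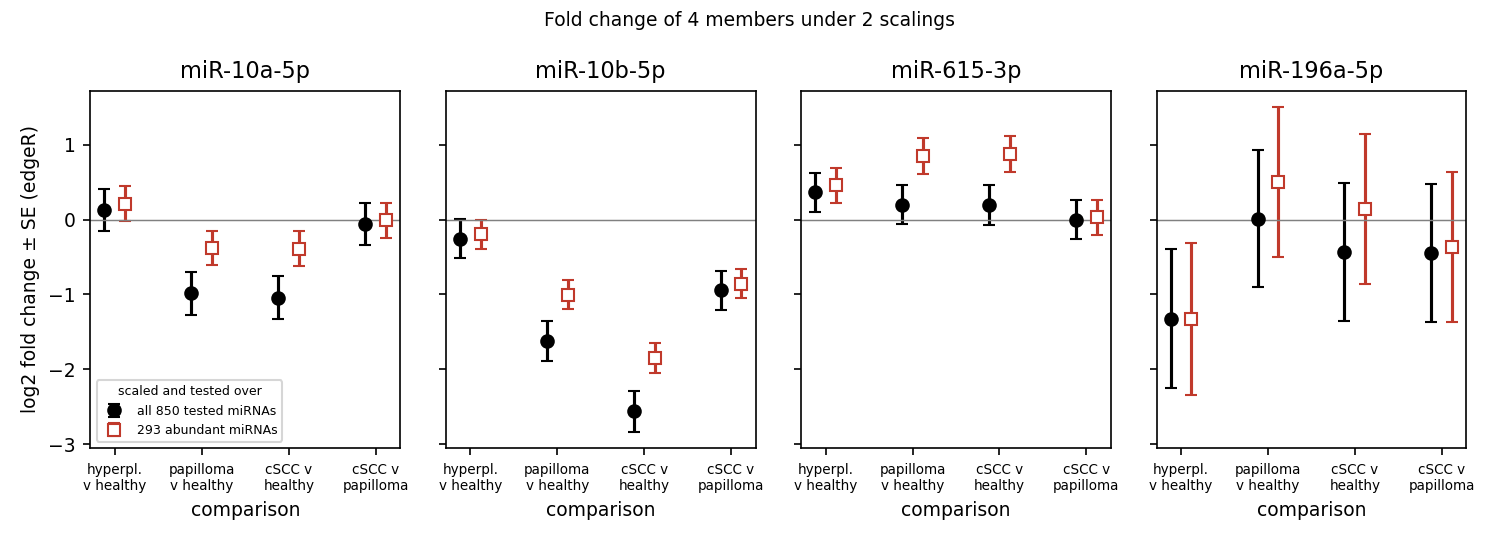
Log2 fold change (edgeR, error bars SE) of miR-10a-5p, miR-10b-5p, miR-615-3p and miR-196a-5p in 4 comparisons, scaled and tested over all 850 miRNAs (filled circles) or over the 293 abundant miRNAs (open squares). In both comparisons of a tumour with healthy skin the squares lie above the circles for all 4, miR-10b-5p stays below 0 under both, and the bars of miR-196a-5p are several times longer than those of the others.

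mmu-miR-196a-5p and mmu-miR-196b-5p varied more between libraries of the same group than any other miRNA tested. Their SD within groups was 2.13 each on the log2 scale, ranks 1 and 2 from the widest of 850, against a median of 0.63 over all tested miRNAs. The 3p arm of the HoxB copy, miR-196a-1-3p, ranked 6 (SD 1.57), miR-196a-2-3p ranked 40 (1.20) and miR-196b-3p 72 (1.11). miR-10a-5p, miR-10b-5p and miR-615-3p were at 0.44, 0.38 and 0.38, below that median. Among the 294 miRNAs of at least 50 CPM after TMM the median was 0.47, and these products ranked 175, 216 and 213 from the widest. Their minor arms were at 0.71 (miR-10a-3p), 0.47 (miR-10b-3p) and 0.55 (miR-615-5p). The wide spread was thus shared by the products of the miR-196 genes and was not seen in the abundant miR-10 and miR-615 products of the same libraries. Sparse miRNAs can also vary widely, so miR-196a-2-3p (mean 4.342) cannot be set apart by its spread. Near its level, miR-675-3p (mean 4.224) had an SD of 1.26 and miR-212-5p (mean 4.257) an SD of 0.58.

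miR-196a-5p was at 24.21, 560.4, 280.3, 88.65 and 9.318 in the healthy libraries, a 60.1-fold range. In hyperplastic skin it was at 19.33, 27.69, 183.9, 25.13 and 129.9, and in papillomas at 267.9, 306.3, 122.2, 234.8 and 37.99. In cSCCs it was at 7.086, 4.422, 255.2, 320.3 and 127.1, a 72.4-fold range. Each group held libraries with high and with low levels, and all groups overlapped. The counts behind the lowest libraries were 11 in cSCC 2, 19 in cSCC 1 and 27 in healthy 7, against 1869 in healthy 3.

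miR-196b-5p, from the HoxA cluster, was at 11.59, 152.3, 93.07, 18.18 and 2.416 in healthy skin and at 5.483, 2.292, 37.31, 12.47 and 72.61 in hyperplastic skin. In papillomas it was at 68.66, 53.03, 11.48, 28.57 and 5.103, and in cSCCs at 1.865, 0.402, 44.17, 5.816 and 19.06. The healthy libraries stood in the same order for both miRNAs (3, 4, 5, 2 and 7 from the highest), and cSCC 2, cSCC 1 and papilloma 6 were the lowest of their groups for both. cSCC 4 was the highest cSCC for miR-196a-5p and in the middle for miR-196b-5p. After subtraction of the group means, the log2 levels of miR-196a-5p and miR-196b-5p were correlated over the 20 libraries (Pearson r = 0.89, Spearman rho = 0.89, permutation within groups p = 1e-05 for each, the smallest that the permutations can give, adjusted over 8 relations 8e-05). Without the 2 libraries farthest from the median, healthy 7 and cSCC 2, r was 0.84, and within single groups it ran from 0.84 to 0.98. The split of reads between these nearly identical products is uncertain, as stated above. The 8 relations were picked among the possible pairs of members and were not planned tests. Their p-values are adjusted over these 8 only and are descriptive.

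**Figure D4:**
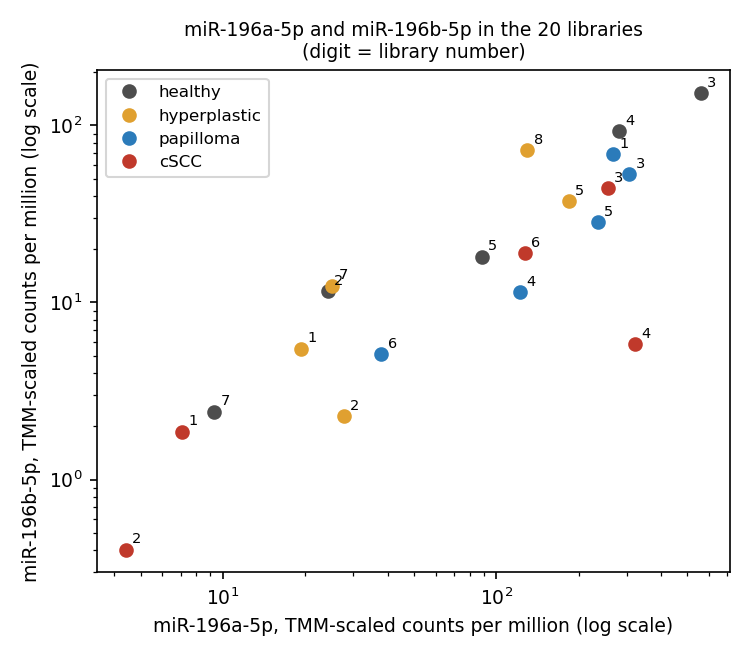
Level of miR-196a-5p (horizontal) and miR-196b-5p (vertical) in the 20 libraries, both in TMM-scaled CPM on log axes, coloured by group and marked with the library number. Libraries of all 4 groups lie along one diagonal from cSCC 2 (4.422 and 0.402) to healthy 3 (560.4 and 152.3), and cSCC 4 (320.3 and 5.816) stands below it.

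The 3p arms, whose sequences are distinct, gave a reading of the same genes that does not share those reads. Within groups, miR-196b-5p was correlated with miR-196b-3p (r = 0.72, rho = 0.73, permutation p = 0.00177 and 0.00135, adjusted 0.00354 and 0.0027, and r = 0.75 without the same 2 libraries). miR-196a-5p was correlated with miR-196a-1-3p (r = 0.84, rho = 0.89, permutation p = 3e-05 and 2e-05, adjusted 0.00012 and 8e-05, and r = 0.85 without them). With miR-196a-2-3p the values were r = 0.65 and rho = 0.64 (permutation p = 0.00911 and 0.0128, adjusted 0.0121 and 0.0171, and r = 0.66 without them). The arms of the miR-196 hairpins thus tended to be high and low in the same libraries, although the within-group r ran down to 0.12 for the miR-196b arms and 0.28 for miR-196a-2-3p, whose median count was 8.5.

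miR-615-3p, the HoxC neighbour of Mir196a-2, was also correlated with miR-196a-5p within groups (r = 0.71, rho = 0.68, permutation p = 0.00302 and 0.00555, adjusted 0.00483 and 0.00888). Without healthy 7 and cSCC 4, r was 0.60. miR-10b-5p and miR-196a-5p gave r = 0.42 and rho = 0.47 (permutation p = 0.0414 and 0.0378, adjusted 0.0474 and 0.0432), and r = 0.59 without hyperplastic 7 and papilloma 3; within single groups r ran from -0.12 to 0.93, so the groups did not share a sign. The miR-10 pair itself gave r = 0.35 and rho = 0.28 (permutation p = 0.164 and 0.282), with r from -0.65 to 0.87 within single groups. All of these values share each library's scaling factor.

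**Figure D5:**
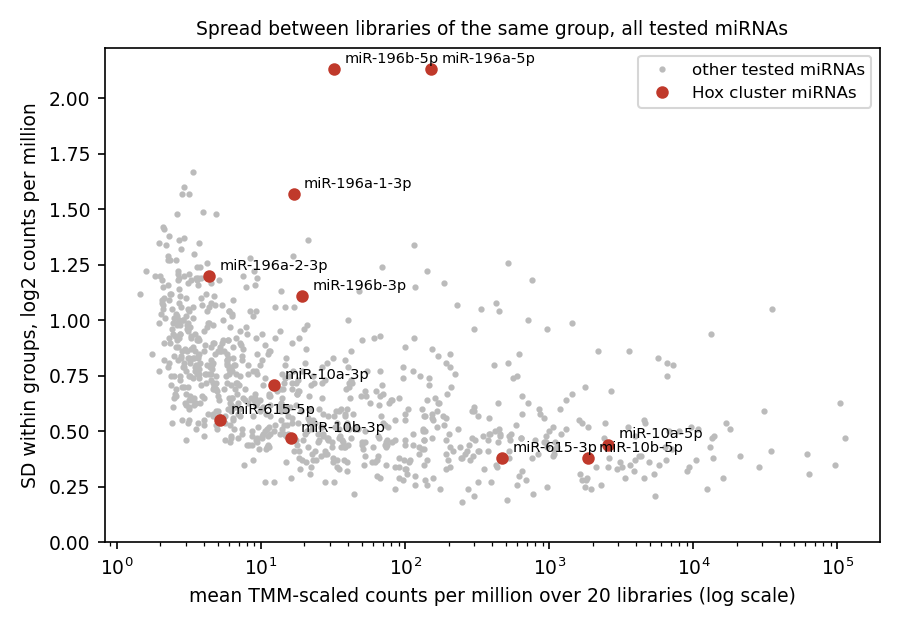
SD of log2 CPM within groups (vertical) against mean level (horizontal, log axis) for the 850 tested miRNAs; red points are the 11 Hox cluster miRNAs. miR-196a-5p and miR-196b-5p stand at 2.13, above all others, and miR-10a-5p, miR-10b-5p and miR-615-3p lie between 0.38 and 0.44.

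In cSCC 4, each HoxB product with an entry of its own had the highest CPM of the cSCCs. miR-10a-5p stood there at 3193 against 869 to 1427 in the other cSCCs, and miR-196a-1-3p at 125.7 against 2.01 to 21.51. miR-10a-3p, by a smaller margin, stood at 11.63 against 2.412 to 9.324. With total miRNA counts as the scale, miR-10a-3p was at 9.539 in cSCC 4 and at 9.628 in cSCC 1. The HoxC copy's arm miR-196a-2-3p had 3 counts in cSCC 4 where miR-196a-1-3p had 281. miR-196b-5p, from HoxA, had 13 counts there where miR-196a-5p had 716. miR-10b-5p, from HoxD, was at 580.7 there, within the range of the other cSCCs. High values in this library were not limited to HoxB. miR-615-3p, from HoxC, was there at 722.5, under TMM the highest of the 20 libraries. With total miRNA counts as the scale, miR-615-3p in cSCC 4 was at 592.5, still the highest of the cSCCs. It was then below papillomas 3, 5 and 6 (608.7, 828.1 and 644) and hyperplastic 5 (611.6). Over all 20 libraries the within-group levels of miR-10a-5p and miR-196a-1-3p gave r = 0.77 and rho = 0.71 (permutation p = 0.00011 and 0.0008, adjusted 0.000293 and 0.00213). Without cSCC 2 and cSCC 4, r was 0.55, for which no p-value was computed. This pair was 1 of the 8 unplanned relations, and both of its members were far from the other cSCCs in cSCC 4.

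No comparison of miR-196a-5p or miR-196b-5p passed the test. In cSCC against healthy skin the log2 fold change of miR-196a-5p was -0.43 ± 0.92 (adjusted p = 0.718), and over the abundant miRNAs 0.14 ± 1.002 (adjusted p = 0.91). For miR-196b-5p it was -1.95 ± 0.97 (adjusted p = 0.0959), without cSCC 3 it was -3.07 (adjusted p = 0.023), and without healthy 3 it was -1.06 (adjusted p = 0.375). The sum of the pair gave -0.65 ± 0.92 (adjusted p = 0.572). An SE near 0.9 leaves changes of several-fold in either direction undetectable with these 5 libraries a group. miR-196b-3p fell by 1.54 ± 0.60 in cSCCs (adjusted p = 0.0377), a call that did not hold without healthy 3 (log2 value -0.74, adjusted p = 0.286), healthy 4 (0.0519) or cSCC 1, 2 or 6 (0.0645, 0.0641 and 0.0632).

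The 3p arms of the miR-10 hairpins, which are mostly degraded when the 5p arm is loaded, were counted 6 to 144 times a library. miR-10b-3p averaged 21.4 ± 4.35 (SD, n = 5) in healthy skin, 25.42 ± 8.26 in hyperplastic skin, 10.94 ± 4.31 in papillomas and 6.406 ± 2.26 in cSCCs. Like its 5p arm it fell, by 0.97 on the log2 scale in papillomas (adjusted p = 0.0171) and by 1.73 in cSCCs (adjusted p = 0.000156) against healthy skin. Against hyperplastic skin it fell by 1.22 in papillomas (adjusted p = 0.00581) and fell by 1.98 in cSCCs (adjusted p = 3.74e-05). The papilloma calls were lost when libraries were scaled by total miRNA counts (log2 values -0.28 and -0.73, adjusted p = 0.516 and 0.115).

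miR-10a-3p was highest in hyperplastic skin, at 21.15 ± 6.29 against 9.346 ± 5.24 in healthy skin, 11.89 ± 2.12 in papillomas and 6.731 ± 3.69 in cSCCs. It fell by 1.65 in cSCCs against hyperplastic skin (adjusted p = 0.00221). Its log2 difference between hyperplastic and healthy skin was 1.17, which did not pass (adjusted p = 0.442). The counts of miR-10a-5p to those of miR-10a-3p stood at 262 or more in each healthy library, at 260 or less in each hyperplastic library and at 157 or less in each papilloma. In cSCCs 1, 2, 3, 4 and 6 it was 127, 333, 273, 269 and 254, so 3 of the 5 lay within the healthy range. The log2 difference was -1.22 between hyperplastic and healthy skin and -1.61 between papillomas and healthy skin (exact permutation p = 0.00794 each, adjusted 0.0833), and the second passed with limma (adjusted p = 0.0108). Between cSCCs and healthy skin it was -0.78 (exact permutation p = 0.206, adjusted 0.361). These ratios rest on 6 to 118 counts of the 3p arm. miR-615-5p, the minor arm of miR-615, stayed between 1.28 and 9.438 and passed in no comparison.

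Counted over the 11 members, none passed in hyperplastic against healthy skin, where 0% of the 850 miRNAs were called. In that comparison 2 members and 75 miRNAs had an unadjusted p under 0.05, and DESeq2 also called none. In papillomas against healthy skin 3 members were lower (miR-10a-5p, miR-10b-5p and miR-10b-3p) where 20.7% of all miRNAs were lower, and none was higher where 24.0% were, also at an unadjusted p under 0.05. In cSCCs against healthy skin 4 were lower (the same 3 and miR-196b-3p) where 21.3% were, and none was higher where 26.2% were; miR-196a-1-3p was higher at an unadjusted p of 0.0302. In cSCCs against papillomas 1 member was lower, miR-10b-5p, where 4.71% of all miRNAs were. Against hyperplastic skin 3 members were lower in papillomas and 4 in cSCCs, where 17.1% and 20.5% were. With 11 members, the counts of lower members lay near the background.

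Of the 4 members among the 293 abundant miRNAs, miR-10b-5p was lower and miR-615-3p higher in papillomas, where 20.5% were lower and 29.0% higher, and in cSCCs, where 25.9% were lower and 36.5% higher, both against healthy skin. miR-10b-5p was lower in cSCCs against papillomas, where 12.3% were, and in papillomas against hyperplastic skin, where 14.0% were. miR-10a-5p and miR-10b-5p were lower in cSCCs against hyperplastic skin, where 23.2% were. A test of any difference across the 4 groups called miR-10a-5p, miR-10b-5p and both their 3p arms where it called 56.0% of the 850 miRNAs, and miR-10b-5p and miR-615-3p where it called 63.5% of the 293. The median log2 fold change of the 11 members was -0.34 in papillomas and -0.78 in cSCCs against healthy skin, beside 0.40 and 0.35 over all tested miRNAs. In hyperplastic against healthy skin it was -0.14 beside -0.01, and in cSCCs against papillomas -0.44 beside -0.12. Against hyperplastic skin it was 0.38 beside 0.27 in papillomas, above the median of all, and -0.57 beside 0.28 in cSCCs.

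miR-99a, miR-99b and miR-100 are relatives of miR-10 in sequence, encoded outside the Hox clusters, whose shared seed resembles that of miR-10. They are shown for comparison with the miR-10 sequences above.
miR-99a-5p: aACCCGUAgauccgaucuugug
miR-100-5p: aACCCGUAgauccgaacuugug
miR-99b-5p: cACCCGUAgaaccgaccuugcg
miR-99a-5p fell by 1.46 on the log2 scale in papillomas (adjusted p = 7.12e-05) and by 2.40 in cSCCs (adjusted p = 4.68e-08) against healthy skin. miR-100-5p fell by 1.43 (adjusted p = 7.12e-05) and 2.28 (adjusted p = 6.31e-08). The matching log2 fold changes of miR-10b-5p were -1.62 and -2.56. miR-99b-5p, with the same seed, gave log2 values of -0.44 (adjusted p = 0.136) and 0.24 (adjusted p = 0.435), and over the abundant miRNAs it rose by 0.95 in cSCCs (adjusted p = 0.000263). Of the 6 arms of these relatives, 3 were lower and 1 was higher in cSCCs against healthy skin, where 21.3% of all miRNAs were lower and 26.2% higher. Over the abundant miRNAs 3 of 5 were lower and 2 higher, where 25.9% were lower and 36.5% higher.

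Likeness over the 20 libraries was measured as the root mean square difference of centred log2 levels. Among 290 other miRNAs of at least 50 CPM, miR-10b-5p was closest to miR-99a-5p (0.18), miR-378-3p (0.21) and miR-100-5p (0.25), with a median of 0.95 over the 290. Its distance to miR-10a-5p, its nearest match in sequence, was 0.66. miR-10a-5p was closest to miR-872-3p (0.30), miR-872-5p (0.31) and let-7f-5p (0.33), with a median of 0.71. miR-196a-5p had no close match outside the Hox clusters: miR-511-3p (1.70), miR-146b-5p (1.79) and miR-185-5p (1.80) came nearest, while miR-196b-5p was at 1.06. For miR-196b-5p the nearest were miR-511-3p (1.50), miR-146a-5p (1.76) and miR-106b-5p (1.76). These distances are descriptions over libraries that share their scaling and their grouping.

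Markers of cell types moved between the same groups as the miR-10 pair. The 9 keratinocyte miRNAs, all found in every library, summed to 156700 to 253600 CPM in healthy skin, 176100 to 223500 in hyperplastic skin, 108200 to 211800 in papillomas and 76440 to 144700 in cSCCs. In cSCCs against healthy skin 5 of 9 were lower where 21.3% of all miRNAs were. Over the abundant miRNAs 3 of 9 were lower and 1 higher, where 25.9% were lower and 36.5% higher. The 4 smooth muscle miRNAs summed to 53670 to 110500, 36850 to 83560, 16240 to 26120 and 13920 to 24380 in the same order, and all 4 were lower in cSCCs against healthy skin, as were the 3 among the abundant miRNAs under that scaling. The 10 fibroblast and mesenchyme miRNAs summed to 209800 to 402200, 149200 to 319700, 74170 to 120200 and 104800 to 214800, with 7 of 10 lower in cSCCs against healthy skin where 21.3% of all miRNAs were, but 3 of 10 lower and 1 higher over the abundant miRNAs, where 25.9% were lower. Of the 8 striated muscle miRNAs, the 6 that passed the low-count filter summed to 19330 to 77340, 16450 to 49910, 1767 to 9182 and 1571 to 3625. In cSCCs against healthy skin 5 of these 6 were lower and 1 was higher, where 21.3% of all miRNAs were lower and 26.2% higher. All 4 among the abundant miRNAs were lower under that scaling, where 25.9% were. miR-208a-3p, miR-208b-3p and miR-499-5p had libraries with 0 counts.

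The 8 leukocyte miRNAs summed to 19120 to 36230 in healthy skin, 10000 to 23230 in hyperplastic skin, 15200 to 60870 in papillomas and 47880 to 110000 in cSCCs, but they did not move together. In cSCCs against healthy skin 2 of 8 were lower and 2 higher (median log2 value 0.06), where 21.3% of all miRNAs were lower and 26.2% higher. Over the abundant miRNAs 2 of 6 were lower and 3 higher, where 25.9% were lower and 36.5% higher. mmu-miR-223-3p rose by 1.89 (adjusted p = 0.000173) and mmu-miR-147-3p by 3.599 (adjusted p = 6.14e-07) on the log2 scale, whereas mmu-miR-150-5p fell by 2.15 (adjusted p = 0.000108) and mmu-miR-146a-5p fell by 1.83 (adjusted p = 0.000232). The 2 endothelial miRNAs summed to 23610 to 43320 in healthy skin and 8811 to 19040 in cSCCs, the 2 melanocyte miRNAs to 686.7 to 2197 and 67.55 to 146.9, and the 4 neural miRNAs to 171.5 to 307 and 58.93 to 133.3. In cSCCs against healthy skin 2 of 2 endothelial miRNAs were lower, but 0 of 2 over the abundant miRNAs. For melanocytes 2 of 2 were lower under both scalings, and 1 of 4 neural miRNAs was lower over all miRNAs. The part of these shifts in the fall of miR-10a-5p and miR-10b-5p was not tested. In whole biopsies, fewer cells that carry a miRNA and less of it per cell cannot be told apart.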

How the data were processed

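Small RNA of 20 mouse skin libraries (5 a group) was size-selected and sequenced on the SOLiD system, per the labels' protocols and design text. The authors deposited 1 table of raw read counts per small RNA feature with mm9 coordinates; mm9 is the build named in the submitters' processing notes. No source used here gives the aligner, mismatch limit or trimming. The table's lowest feature total was 21 counts, and 0 columns were of other samples.

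The 1137 mature miRNAs were fitted together with edgeR 4.0.16 (filterByExpr, minimum count 10, 850 kept; TMM; quasi-likelihood F test; 4 groups, no covariates) in R 4.3.3, at an adjusted p under 0.05. Sums of near-identical pairs replaced their members in a second fit. Alternatives were DESeq2 1.42.0, other size factors, other filters, all features, single pairs of groups, the replicate number as a block and each library left out. Log2 ratios within a library (0.5 counts added) were tested by exact two-sided permutation in scipy 1.17.1, with limma 3.58.1 as the alternative, and correlations by 100000 permutations within groups. The fit was tested on simulated data. Sequences are from RefSeq (GRCm38.p6). Counting error is negligible against the spread between libraries for members above 50 CPM and is not for the minor arms.

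All 11 members are reported, with the miR-99 and miR-100 arms and, for each of 4 main members, the 3 miRNAs of at least 50 CPM closest in centred log2 level. Members and lists were chosen with earlier results of these data known, and the 8 correlated pairs were not among the planned tests.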

Additional observations from a re-analysis of the deposited data

Results flagged for a closer look

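In groups of 5 libraries, 9 of 72 tested sets of values held a library far from the other 4 by Dixon's test. Chance marks about 1 in 20 where sets are independent and values normal. The CPM were tested without log transformation and the sets share counts, so no excess over chance can be read from these flags. Of these, 3 were in cSCC 4: miR-10a-5p at 3193 and miR-196a-1-3p at 125.7 CPM, and a log2 ratio of miR-196a-5p to miR-196b-5p of 5.73. The others were miR-615-5p at 7.375 in healthy 4 and at 1.28 in hyperplastic 8, miR-196a-2-3p at 9.438 in cSCC 3, and 3 log2 ratios of a 5p to its 3p arm: 6.99 for miR-10a in cSCC 1, 5.27 for miR-10b in papilloma 6 and -1.22 for miR-196b in healthy 7.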

How the results depend on the processing

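A chosen part of the results, 45 in number, was followed under other settings. Of their 783 values, 702 kept their direction, their side of the threshold and, for counts, their size within 1.5 times. Single results of miR-196a-1-3p, miR-196a-2-3p and miR-615-5p were left out. The only ratios followed were those of miR-10a-5p to miR-10b-5p and to miR-10a-3p. The miR-196 sum, miR-196a-5p, miR-196b-5p and miR-196b-3p were followed in cSCCs against healthy skin only. The tally therefore does not describe the stability of all results. The fall of miR-10b-5p and of the miR-10 sum in papillomas and cSCCs, against healthy and against hyperplastic skin, held under each setting run and with each library left out.

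Limiting the fit to abundant miRNAs, which removes 7 members from the test by construction, changed the number of members called to 2 in cSCCs against healthy skin, 1 in papillomas against hyperplastic skin, 2 in cSCCs against hyperplastic skin and 2 across the 4 groups. The single call in cSCCs against papillomas, miR-10b-5p, went to 0 without the low-count filter (log2 value -0.86, adjusted p = 0.088), with library sizes that leave out the top 5 miRNAs (-0.82, 0.0546) and with all small RNA features in the fit (-0.87, 0.063), and the number called ran from 0 to 1 as single libraries were left out. The cause was not tested beyond the number of features in each fit.

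Values near 0 changed sign, none of them past the threshold. The sum of the miR-10 pair in hyperplastic against healthy skin was 0.15 with total miRNA counts, 0.03 with abundant miRNAs and 0.01 with all features. miR-615-3p was -0.02 in papillomas without the top 5 miRNAs and -0.16 without the filter, and -0.08 in cSCCs without the filter, all against healthy skin. miR-196a-5p was 0.14 in cSCCs against healthy skin with abundant miRNAs. miR-10a-5p in cSCCs against papillomas was 0.05 without the top 5 miRNAs, 0.02 without the filter and 0.00 with only those 2 groups. Total miRNA counts as the scale made the fall of the miR-10 sum from papilloma to cSCC a call (-0.64, adjusted p = 0.0394), and limma did so for the ratio of miR-10a-5p to miR-10b-5p in cSCCs against healthy skin (1.41, adjusted p = 0.0108).

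With single libraries left out, log2 values ran from -0.05 to 0.20 for miR-10a-5p in hyperplastic against healthy skin and from -0.36 to 0.17 in cSCCs against papillomas. Against healthy skin they ran from -0.17 to 0.24 for miR-615-3p in papillomas and from -0.13 to 0.33 in cSCCs, from -1.18 to 0.58 for miR-196a-5p in cSCCs and from -1.32 to 0.22 for the miR-196 sum in cSCCs. The ratio of miR-10a-5p to miR-10b-5p in papillomas against hyperplastic skin ran from -0.02 to 0.38.

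With the replicate number as a replicate block, the sum of the miR-10 pair in hyperplastic against healthy skin was 0.09 and the ratio of miR-10a-5p to miR-10b-5p in papillomas against hyperplastic skin was -0.14. The block kept the number of members called at 3 in papillomas and 4 in cSCCs against healthy skin, while it lost miR-196b-3p (-1.03, adjusted p = 0.133) and gained miR-196b-5p (-2.43, adjusted p = 0.0474) in cSCCs against healthy skin and lost miR-10b-3p in papillomas against hyperplastic skin (-1.08, adjusted p = 0.10). The labels do not say whether a shared number marks a shared mouse or batch. Correlations of same-numbered libraries ran from -0.226 to 0.414 over 17 pairs, 7 of them over 0.1. The own number gave the highest correlation in 7 of 34 cases, and these values do not settle what a number marks.

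Other calls lost were miR-10b-3p in papillomas with all features (adjusted p = 0.171 against healthy skin, 0.0584 against hyperplastic skin) or only the 2 groups (0.0589, against healthy skin), and miR-196b-3p in cSCCs with total counts, all features or only the 2 groups (0.0714, 0.0811 and 0.0695). Depth limits the minor arms, and with 4 against 5 libraries the exact test cannot go below 0.0159.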
